A study of Mus musculus with 10 samples.

Results

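The genes described are 7 members of the MS4A family of membrane proteins, *Ms4a4a*, *Ms4a4b*, *Ms4a4c*, *Ms4a6b*, *Ms4a6c*, *Ms4a6d* and *Ms4a7*. They were taken by symbol from the 55453 rows of the count table, and all 7 had a row. The rule used the symbol and no expression value, but the list of members was drawn up with earlier results of these data known. Other *Ms4a* genes in the count table are described further below. Each library was made from hippocampal microglia, sorted by flow cytometry, of 3xTg AD mice (females over 15 months of age), 5 from mice given PBS and 5 from mice given GA (glatiramer acetate, a random polymer of 4 amino acids used as a drug in multiple sclerosis) at 0.1 mg weekly under the skin for about 8 weeks. All mice, controls included, carried the human transgenes of this line, driven by the neuronal Thy1 promoter, among them MAPT with P301L and APP with the Swedish mutation, and they were retired breeders. No mice without the transgenes were part of the comparison, so it addresses GA in an established disease model and not the disease itself. Cells were sorted as CD45int CD11b+, a gate that border-associated macrophages and monocytes can enter in part, and the sources used here give no statement on pooling of animals. The 5 PBS libraries have titles that begin with 388, and the GA libraries have titles that begin with 394 (2 libraries) or 400 (3 libraries). The sources used here do not say what these prefixes mean. Because no prefix held both treatments, prefix and GA cannot be told apart. Nothing in the labels says that the libraries came from separate animals, so the p-values measure the spread between these libraries.

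MS4A proteins cross the membrane several times, and many are thought to act beside immune receptors. *Ms4a1* encodes CD20 of B cells and *Ms4a2* encodes the beta chain of the high-affinity IgE receptor of mast cells. The genes form a cluster, and the human counterpart of its myeloid part is a risk locus for Alzheimer disease that is also associated with the level of soluble TREM2 in cerebrospinal fluid. Human MS4A4A has been linked to signalling of dectin-1 in macrophages. In the mouse brain, *Ms4a7* is used as a marker that separates border-associated macrophages from microglia, *Ms4a4b* is known from T cells, and *Ms4a4c* is known as a gene that interferon induces.

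The total per library ran from 32332185 to 38764643 counts, and the summed level of the 10 homeostatic microglia markers lay between 56188 and 66373 CPM in all libraries, so the defining markers of the labelled cell type were abundant in each. CPM, the depth-scaled count of a gene, is given after TMM normalization (trimmed mean of M values) throughout. The neutrophil markers varied widely, with overlap between the groups. Their sum was 37.9 to 446 CPM in PBS and 10.9 to 169 CPM in GA, 8 of the 10 markers could be tested, and 7 had an unadjusted *P* under 0.05, all lower in GA, with none passing the adjustment (edgeR; 5.75% of all genes tested had an unadjusted *P* under 0.05). The part of these cells in the results below was not tested.

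On GRCm38 the cluster took up 678.6 kb of chromosome 19, from 10962293 to 11640851, between the protein-coding genes *Ccdc86* and *Oosp2*. It held 35 annotated genes, 22 of them protein coding and 19 named *Ms4a*. The members lay in 2 orientations. *Ms4a7* (chr19:11321039-11336146) and *Ms4a6d* (chr19:11586604-11604849) were on the minus strand. *Ms4a4a* (chr19:11375523-11392790), *Ms4a4c* (chr19:11404770-11427246), *Ms4a4b* (chr19:11443553-11467055), *Ms4a6c* (chr19:11469366-11482192) and *Ms4a6b* (chr19:11516512-11531256) were on the plus strand, in that order.

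Some of the members are close to one another in sequence, which bears on how far their reads can be told apart. The coding sequences of *Ms4a4b* and *Ms4a4c* were identical at 91.7% of aligned bases, those of *Ms4a6b* and *Ms4a6c* at 85.0%, those of *Ms4a6b* and *Ms4a6d* at 80.6% and those of *Ms4a6c* and *Ms4a6d* at 77.0%. *Ms4a4a* was 65.4% identical to *Ms4a4b* and 65.7% to *Ms4a4c*, and *Ms4a7* was closest to *Ms4a6d*, at 59.2%. Despite this likeness, stretches as long as a read were rarely shared. Of the 100-base windows of one transcript per gene, 1.72% of those of *Ms4a4c* also occurred in *Ms4a4b*, and none of those of *Ms4a4a*, *Ms4a6b*, *Ms4a6d* or *Ms4a7* occurred in another gene. For *Ms4a6c* the share was 51.3%, all of it in *BE692007*, a transcript annotated on the opposite strand across its exons. The library kit does not mark strand, so reads of *Ms4a6c* and *BE692007* in these exons cannot be told apart, and the counts of *Ms4a6c* are uncertain to that extent.

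The likeness extended to the promoters. Windows of 300 bases, from 250 before to 50 after the start of transcription (RefSeq, GRCm38.p6), were at hand for 6 of the 7 members, with 2 for *Ms4a7*. For *Ms4a4c* and *Ms4a6b* the window lies inside the gene span given above, so the outermost annotated start was not covered. Those of *Ms4a4b* and *Ms4a4c* were identical at 72.7% of aligned bases. They are shown because the 2 genes are nearly the same in coding sequence and, as described below, far apart in level. Capitals mark GAGGAA, a core motif of PU.1, the myeloid lineage factor, and TGANTCA. The pattern TGANTCA is looser than the core motif of AP-1, in which the middle base is C or G.
Ms4a4c, plus strand, chr19:11407411-11407710: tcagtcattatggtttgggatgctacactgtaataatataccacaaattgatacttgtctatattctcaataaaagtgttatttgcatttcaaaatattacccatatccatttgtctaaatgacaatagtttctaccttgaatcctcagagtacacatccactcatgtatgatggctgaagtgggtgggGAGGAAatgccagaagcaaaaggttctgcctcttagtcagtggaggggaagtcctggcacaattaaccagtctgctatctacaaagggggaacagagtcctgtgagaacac
Ms4a4b, plus strand, chr19:11443308-11443607: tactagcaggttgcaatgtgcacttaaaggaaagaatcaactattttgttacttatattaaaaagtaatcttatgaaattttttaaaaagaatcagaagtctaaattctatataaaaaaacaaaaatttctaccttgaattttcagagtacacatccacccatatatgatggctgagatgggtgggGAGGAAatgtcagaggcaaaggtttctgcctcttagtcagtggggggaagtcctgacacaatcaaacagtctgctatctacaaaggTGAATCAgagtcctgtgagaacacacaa

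GAGGAA began at base 190 of the *Ms4a4c* window and at base 187 of the *Ms4a4b* window. TGANTCA began at base 273 of the *Ms4a4b* window, where the 2 strands read the same site, and had no match in the *Ms4a4c* window. The middle base of that match is A, so it is not the AP-1 core itself. On either strand, GAGGAA was found in 28.3% and TGANTCA in 7.81% of the 32851 promoter windows in the table. Neither 2 GAAA blocks separated by any 2 bases, a core of interferon-stimulated elements found in 3.44% of windows, nor TTC and GAA separated by any 3 bases, a core of STAT sites found in 8.3%, had a match in any of the 7 member windows. The 4 motifs can overlap one another, and a match here is a description of letters, not of a bound site.

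Windows of *Ms4a6b* and *Ms4a6c* were identical at 84.4% of aligned bases, the highest value among the 15 pairs of members. Capitals mark a run of 48 bases that they share without a mismatch.
Ms4a6b, plus strand, chr19:11518309-11518608: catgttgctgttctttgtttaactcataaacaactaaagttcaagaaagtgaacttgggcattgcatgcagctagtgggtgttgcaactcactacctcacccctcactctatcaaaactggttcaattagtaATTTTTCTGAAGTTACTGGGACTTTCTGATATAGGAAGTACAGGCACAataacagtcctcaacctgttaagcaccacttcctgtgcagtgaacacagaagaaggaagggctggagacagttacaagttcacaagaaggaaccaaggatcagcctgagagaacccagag
Ms4a6c, plus strand, chr19:11469118-11469417: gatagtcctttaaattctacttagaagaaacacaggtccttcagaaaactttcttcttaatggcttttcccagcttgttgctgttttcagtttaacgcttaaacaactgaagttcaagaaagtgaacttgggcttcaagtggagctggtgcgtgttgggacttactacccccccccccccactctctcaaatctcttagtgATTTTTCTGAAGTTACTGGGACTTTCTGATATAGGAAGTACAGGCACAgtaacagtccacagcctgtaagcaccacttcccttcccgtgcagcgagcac

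None of the 4 motifs had a match in either window. Every other pair of members aligned at 48.7% to 55.7% identity.

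In level, the 3 *Ms4a6* genes held most of what these microglia expressed of the members. Averaged over the 10 libraries, *Ms4a6d* took 56.4% ± 2.39 (SD, n = 10) of the summed CPM of the members, *Ms4a6b* took 32.3% ± 2.22 and *Ms4a6c* took 6.43% ± 0.700. *Ms4a7* took 2.50% ± 0.995, *Ms4a4c* 1.51% ± 0.514, *Ms4a4a* 0.835% ± 0.377 and *Ms4a4b* 0.0747% ± 0.0811. The sum over the members was 282 ± 19.2 CPM in PBS and 278 ± 17.3 CPM in GA (SD, n = 5 each).

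Levels of different genes were ordered per kb of merged exons. *Ms4a6d* led at 91.0 ± 5.84 CPM per kb (SD, n = 10), above 97.4% of the tested genes. *Ms4a6b* followed at 20.1 ± 1.71 CPM per kb, above 84.3%, and *Ms4a6c* at 8.82 ± 1.26 CPM per kb, above 66.6%. The ranges of these 3 genes over the libraries did not overlap one another or those of the genes beneath them. Of the 2050 merged exon bases of *Ms4a6c*, 1088 are shared with *BE692007*. Its level, its share and its distance from *Ms4a6b* are uncertain to that extent. *Ms4a4a*, at 2.84 ± 1.37 CPM per kb, and *Ms4a4c*, at 2.43 ± 0.880, did not differ beyond their spread, and *Ms4a4a* was the higher of the 2 in 6 of 10 libraries. *Ms4a7* came next at 1.59 ± 0.669 CPM per kb, and its range overlapped that of *Ms4a4c*, which was the higher in 9 of 10 libraries. *Ms4a4b* was last at 0.0243 ± 0.0276 CPM per kb. The order was the same with the longest transcript as the length of each gene. Along the chromosome, the 3 highest members were the 3 nearest to the right end of the cluster.

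**Figure D1:**
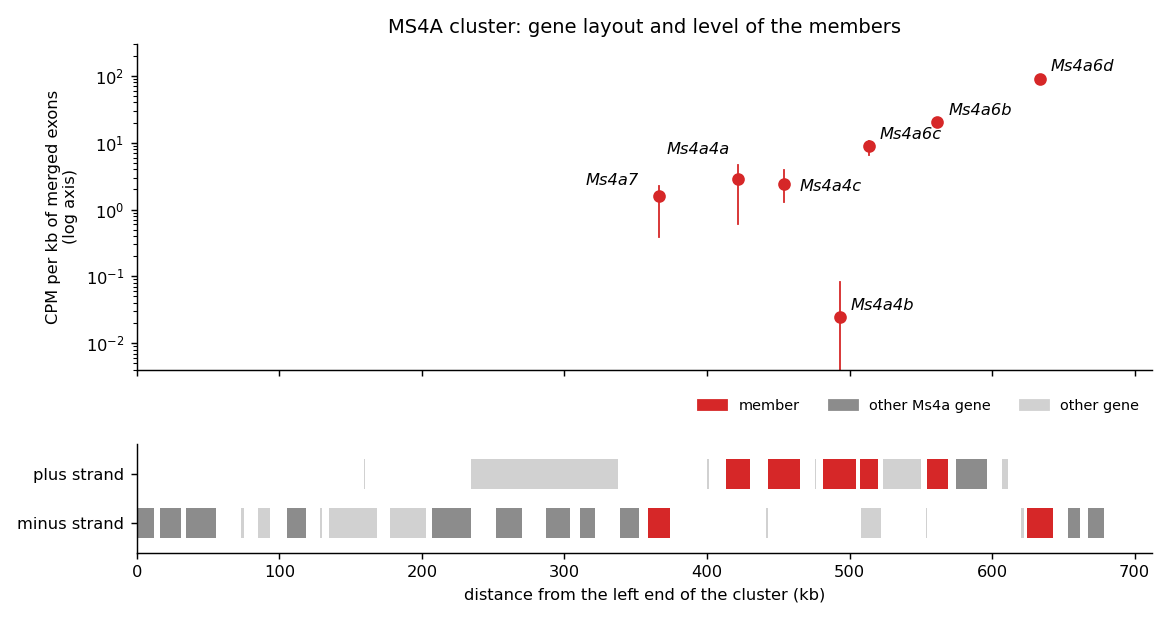
The upper panel plots the mean level of each member over 10 libraries in CPM per kb of merged exons on a log axis, with lines from the lowest to the highest library; the line of *Ms4a4b* runs off the axis because 2 libraries had no read. The lower panel draws the 35 genes of the cluster by strand against the distance in kb from its left end, and *Ms4a6d*, at 91.0 CPM per kb, stands highest.

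No member passed the test of GA against PBS, and 6 of the 7 could be tested. Over all 14481 genes tested, 0 (0%) had an adjusted *P* under 0.05 (edgeR quasi-likelihood test with Benjamini-Hochberg adjustment), 833 (5.75%) had an unadjusted *P* under 0.05, and in 129 (0.891%) the CPM values of the 2 groups did not overlap. DESeq2 called 2 genes and limma-voom 0, none of them a member. Among the 6 members, none had an unadjusted *P* under 0.05 and none had groups without overlap. The exact permutation test quoted beside each member is two-sided, on log2(CPM + 0.1), and cannot go below 0.00794 with 5 libraries against 5.

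*Ms4a6d*, the most abundant member, was counted 5703, 4954, 5009, 5584 and 6058 times in PBS replicates 1 to 5 and 4792, 5792, 5748, 5873 and 6121 times in GA replicates 1 to 5. Its level was 149, 148, 153, 173 and 172 CPM in PBS and 144, 163, 166, 154 and 157 CPM in GA. The libraries of both groups lay close together, and the highest was 1.20 times the lowest. The log2 fold change of GA over PBS was -0.02 ± 0.07 (SE; adjusted *P* = 0.978, edgeR; exact permutation *P* = 0.730). Its 95% confidence interval ran from 0.890-fold to 1.09-fold.

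*Ms4a6b* was counted 3170, 2936, 3473, 2971 and 3109 times in PBS and 2909, 3188, 2930, 3192 and 3951 times in GA. In CPM, the PBS libraries were at 83.0, 87.7, 106, 92.1 and 88.1 and the GA libraries at 87.2, 89.5, 84.6, 83.7 and 102. One library of each group, PBS replicate 3 and GA replicate 5, was above the other 8, and no GA library left the range of the PBS libraries. Its log2 fold change was -0.03 ± 0.08 (SE; adjusted *P* = 0.975, edgeR; exact permutation *P* = 0.635), with an interval from 0.868-fold to 1.10-fold.

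*Ms4a6c* was counted 639, 539, 592, 688 and 731 times in PBS and 446, 619, 605, 830 and 693 times in GA. Its level was 16.7, 16.1, 18.1, 21.3 and 20.7 CPM in PBS and 13.4, 17.4, 17.5, 21.8 and 17.8 CPM in GA. GA replicate 1 was the lowest and GA replicate 4 the highest of all 10, so the GA group enclosed the PBS group. The log2 fold change was -0.08 ± 0.13 (SE; adjusted *P* = 0.960, edgeR; exact permutation *P* = 0.587), with an interval from 0.778-fold to 1.15-fold. The transcript on its opposite strand, *BE692007*, had 100 to 180 counts per library and a log2 fold change of -0.38 ± 0.19 (SE; unadjusted *P* = 0.0635, adjusted *P* = 0.872, edgeR; exact permutation *P* = 0.0317, before any correction). Of its 5 GA libraries, 4 were beneath every PBS library, and the groups overlapped.

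*Ms4a7*, the macrophage marker, was counted 273, 209, 319, 308 and 88 times in PBS and 58, 237, 255, 377 and 387 times in GA. In CPM it stood at 7.14, 6.25, 9.74, 9.54 and 2.49 in PBS and at 1.74, 6.65, 7.37, 9.88 and 9.96 in GA. Each group had one library far beneath the rest, PBS replicate 5 and GA replicate 1, and the highest of the 10 libraries was 5.73 times the lowest. GA over PBS gave a log2 fold change of 0.02 ± 0.40 (SE; adjusted *P* = 0.997, edgeR; exact permutation *P* = 0.929). The interval was wide, from 0.559-fold to 1.84-fold, so changes of that size in either direction could not be told from none.

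*Ms4a4c*, the interferon-induced member, had the largest estimate among the 6. It was counted 139, 111, 136, 95 and 151 times in PBS and 76, 107, 199, 242 and 263 times in GA. Its level was 3.64, 3.32, 4.15, 2.94 and 4.28 CPM in PBS and 2.28, 3.00, 5.75, 6.34 and 6.77 CPM in GA. The 3 GA libraries with prefix 400 were above every PBS library, while the 2 with prefix 394 were within or beneath the PBS range. The log2 fold change was 0.40 ± 0.28 (SE; unadjusted *P* = 0.182, adjusted *P* = 0.901, edgeR; exact permutation *P* = 0.413), with an interval from 0.865-fold to 2.01-fold. With the prefix 394 libraries left out it was 0.78 (unadjusted *P* = 0.00206, adjusted *P* = 0.452), and with the prefix 400 libraries left out it turned to -0.47 (unadjusted *P* = 0.144).

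*Ms4a4a*, the member whose human counterpart was linked to dectin-1, was counted 75, 17, 125, 121 and 68 times in PBS and 45, 103, 45, 135 and 106 times in GA. These counts gave 1.96, 0.508, 3.82, 3.75 and 1.93 CPM in PBS and 1.35, 2.89, 1.30, 3.54 and 2.73 CPM in GA. The libraries of both groups were spread over a similar range, with PBS replicate 2 lowest of all, and the highest was 7.52 times the lowest. Its log2 fold change was -0.02 ± 0.45 (SE; adjusted *P* = 0.997, edgeR; exact permutation *P* = 0.833), with an interval from 0.507-fold to 1.93-fold.

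*Ms4a4b* did not pass the filter on low counts. It had 6, 2, 0, 18 and 0 reads in PBS and 9, 6, 5, 2 and 28 reads in GA. Reads were most numerous in PBS replicate 4 and GA replicate 5, and a library with no read still allows up to 3. The exact permutation *P* was 0.341, and a fit without the filter gave a log2 fold change with a 95% interval from -1.18 to 2.82 (unadjusted *P* = 0.404, edgeR). The T cell receptor complex genes *Cd3e* (0 to 3 reads), *Cd3g* (0 to 2) and *Trbc2* (0 to 4) were at or near 0 in every library, and *Cd3d* had 0 to 18. Of the 12 T cell markers, 4 were highest in one of the 2 libraries with the most reads of *Ms4a4b*, namely *Cd3e* (0.0930 CPM), *Trac* (0.279 CPM) and *Trbc2* (0.124 CPM) in PBS replicate 4 and *Cd4* (1.31 CPM, 51 reads) in GA replicate 5. The other 8 were highest elsewhere, among them *Cd3d*, *Cd2* and *Trbc1* in libraries with no read of *Ms4a4b* and *Lck*, a kinase of T cell receptor signalling, in GA replicate 4 (1.39 CPM), with 2 reads of *Ms4a4b*. 9 of the 12 T cell markers were under the filter. The summed level of the 12 was 57.4 to 69.3 CPM in PBS and 55.8 to 79.8 CPM in GA, nearly all of it from *Il7r* (53.7 to 78.4 CPM). The CD45int CD11b+ gate is one that most T cells fall outside, and a part of T cells in the reads of *Ms4a4b* was not tested.

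**Figure D2:**
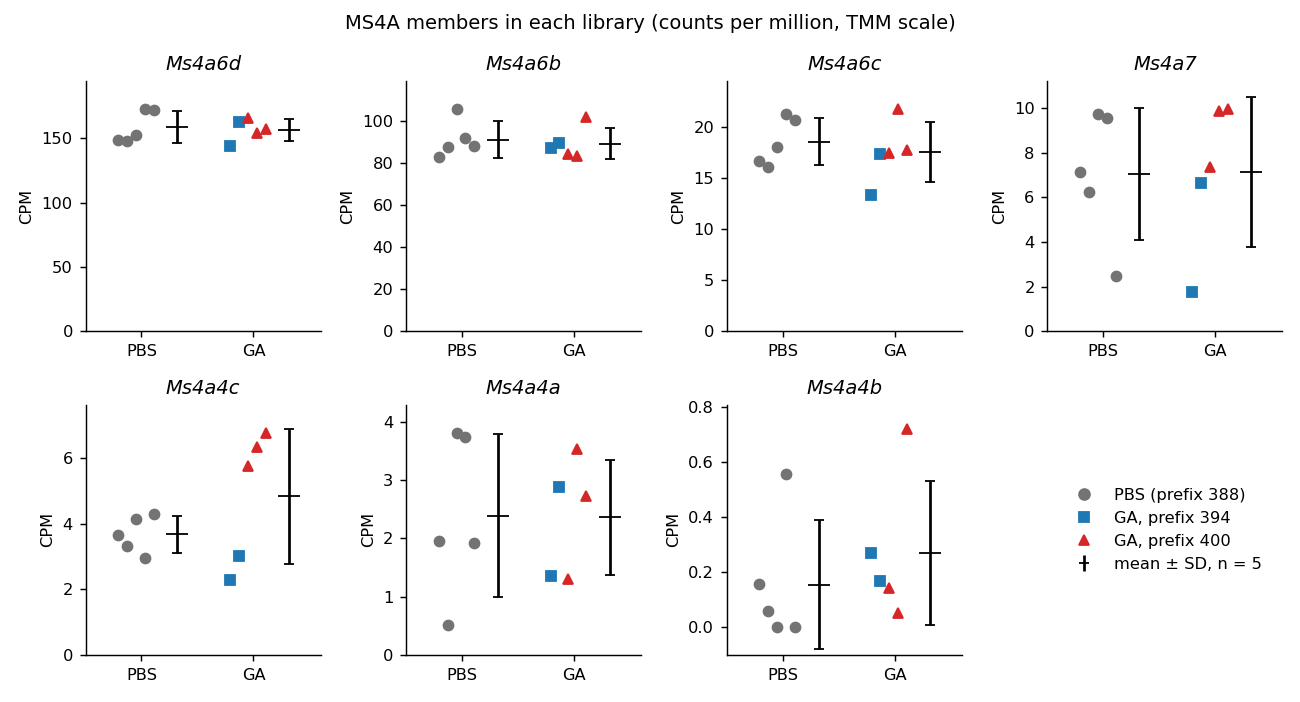
Each panel plots the CPM (TMM scale) of one member in every library, with PBS and GA side by side, the title prefix as the symbol, and a bar for the mean ± SD (n = 5). The groups overlap in all 7 panels, and for *Ms4a4c* the 3 prefix 400 libraries, at 5.75 to 6.77 CPM, lie above the PBS libraries.

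**Figure D3:**
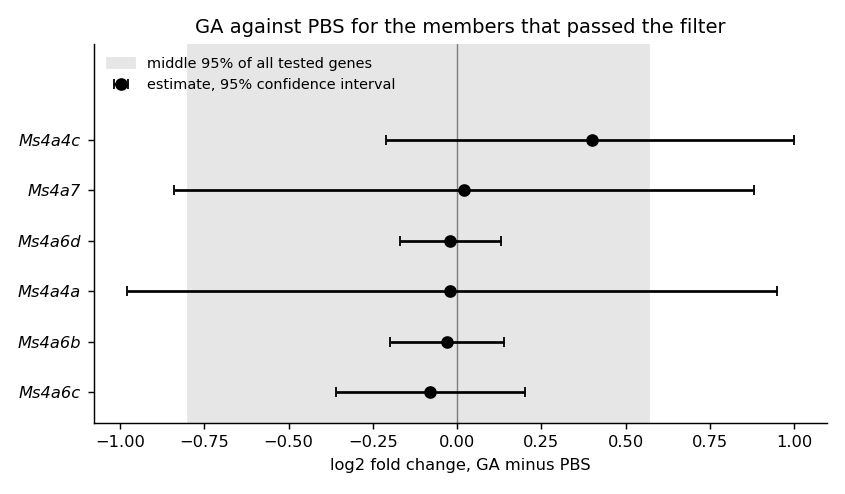
The log2 fold change of GA minus PBS (horizontal axis) is plotted for the 6 members that passed the filter with its 95% confidence interval, over a band that holds the middle 95% of all tested genes, -0.80 to 0.57. All 6 intervals cross 0, and those of the *Ms4a6* genes are the narrowest.

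The members differed in how evenly they were expressed within a group. The coefficient of variation, averaged over the groups, was 6.65% for *Ms4a6d*, 8.89% for *Ms4a6b*, against medians of 8.00% and 8.69% among genes within 2-fold of each in level. For *Ms4a6c* it was 14.8%, higher than in 63.0% of the 3763 genes of like level. For *Ms4a7* it was 44.5%, higher than in 96.8% of the 2376 genes of like level, whose median was 18.8%. *Ms4a4a*, at 50.3%, exceeded 87.5% of its 2016 comparison genes, and *Ms4a4c*, at 28.8%, exceeded 66.4% of 1960. The spread of *Ms4a4c* lay mostly in GA, with a coefficient of 42.4% there and 15.3% in PBS.

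The 2 title prefixes of the GA libraries were compared within the treatment. Of the 14481 genes, 793 (5.48%) had an unadjusted *P* under 0.05 and 2 (0.0138%) an adjusted *P* under 0.05 (edgeR), neither of them a member. *Ms4a4c* was at 6.29 CPM on average in the 3 prefix 400 libraries and at 2.64 CPM in the 2 prefix 394 libraries. That log2 difference of 1.25 ± 0.27 (SE) ranked 25th among all genes by *P* and did not pass the adjustment (unadjusted *P* = 0.000522, adjusted *P* = 0.302, edgeR). *Ms4a7* was at 9.07 and 4.20 CPM, a log2 difference of 1.11 ± 0.54 (unadjusted *P* = 0.0616, adjusted *P* = 0.939, edgeR). The log2 differences of *Ms4a6c* (0.31 ± 0.18), *Ms4a4a* (0.25 ± 0.67), *Ms4a6d* (0.06 ± 0.10) and *Ms4a6b* (0.03 ± 0.12) had unadjusted *P* values from 0.109 to 0.826 (edgeR).

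Type I interferon response genes varied with *Ms4a4c* in part of the libraries. The summed level of the 16 listed genes was 220, 182, 304, 221 and 206 CPM in PBS and 175, 171, 213, 405 and 491 CPM in GA. Both prefix 394 libraries were the lowest in the sum and GA replicates 4 and 5 the highest, which was also so for *Ms4a4c* at the upper end. GA replicate 3 departed from this, with 5.75 CPM of *Ms4a4c*, above all PBS libraries, and an interferon sum inside the PBS range. Within PBS the picture was mixed. Replicate 3 had the highest sum (304 CPM) with 4.15 CPM of *Ms4a4c* and replicate 2 the lowest sum (182 CPM) with 3.32 CPM, while replicate 5 had the highest *Ms4a4c* (4.28 CPM) with a sum of 206 CPM and replicate 4 the lowest (2.94 CPM) with a sum of 221 CPM. In GA against PBS, all 16 genes had positive log2 fold changes, from 0.07 to 0.80 with a median of 0.37 against 0.00 over all genes, but 0 had an unadjusted *P* under 0.05 and 0 passed the adjustment (edgeR; the background at an unadjusted *P* under 0.05 was 5.75%). The median library of each group did not share this direction, with a summed level of 213 CPM in GA and 220 CPM in PBS. Between the GA prefixes, all 16 were higher in prefix 400, with a median log2 difference of 1.29 against 0.01 over all genes. Of these, 14 had an unadjusted *P* under 0.05, where the background was 5.48%, and 0 passed the adjustment. *Ifit1*, an interferon-induced RNA-binding protein, was at 5.23, 4.66, 12.2, 5.36 and 7.28 CPM in PBS and at 4.17, 4.97, 8.26, 19.0 and 21.8 CPM in GA. The part of the interferon response in the level of *Ms4a4c* was not tested.

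Markers of border-associated macrophages varied with *Ms4a7* in part. Their summed level over 12 genes was 703, 592, 714, 921 and 521 CPM in PBS and 569, 766, 650, 834 and 661 CPM in GA. PBS replicate 5 and GA replicate 1, lowest in *Ms4a7*, were also the 2 lowest in the sum, while GA replicate 5, highest in *Ms4a7*, had a middling sum. Most of the sum came from *Stab1* and *Maf*, the 2 markers that were not higher in prefix 400. Without them, a choice made after seeing the data, the sum of the other 10 was 107, 53.6, 158, 285 and 59.1 CPM in PBS and 56.9, 95.3, 106, 216 and 104 CPM in GA. PBS replicate 2, at 6.25 CPM of *Ms4a7*, was then the lowest, next to GA replicate 1 and PBS replicate 5. *Mrc1*, the mannose receptor and a defining gene of these cells, was at 36.3, 16.1, 53.0, 82.8 and 17.3 CPM in PBS and at 18.1, 30.8, 35.4, 69.3 and 35.1 CPM in GA, and no marker on the list was at 0 in any library. All 12 could be tested, 2 with positive and 10 with negative log2 fold changes in GA, with a median of -0.24 against 0.00 for the whole table tested, and none (0) reached an unadjusted *P* under 0.05 (edgeR, background 5.75%). Between the GA prefixes 10 of the 12 were higher in prefix 400, as *Ms4a7* was, with a median log2 difference of 0.78 against 0.01 over all genes and 1 with an unadjusted *P* under 0.05 (background 5.48%). In sorted bulk cells, more cells of a type and more RNA per cell cannot be told apart, and the part of these macrophages in the level of *Ms4a7* was not tested.

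**Figure D4:**
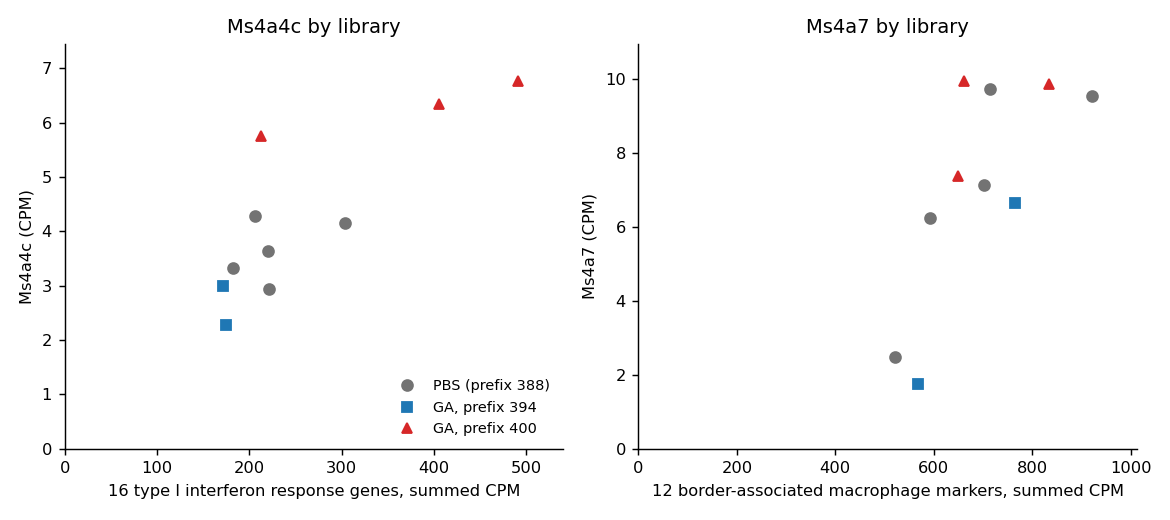
The left panel plots *Ms4a4c* (CPM) against the summed CPM of 16 type I interferon response genes, and the right panel plots *Ms4a7* (CPM) against the summed CPM of 12 border-associated macrophage markers, with one symbol per library and the title prefix as its shape. GA replicates 4 and 5 stand highest in the left panel, and the 2 libraries lowest in *Ms4a7*, at 1.74 and 2.49 CPM, have the lowest marker sums in the right panel.

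Among the members themselves, *Ms4a6c* and *Ms4a6d* had the most alike patterns over the 10 libraries (Pearson *r* = 0.705 on log2 CPM), followed by *Ms4a4a* with *Ms4a6c* (*r* = 0.583) and *Ms4a4c* with *Ms4a7* (*r* = 0.523). For *Ms4a6b*, which shares the promoter run with *Ms4a6c*, the value with it was *r* = 0.0646. These values describe 10 libraries that share preparation and the 2 treatments. Of all 14480 other genes, those like *Ms4a4c* included *Parp14* (*r* = 0.951), a mono-ADP-ribosyltransferase that interferon induces, and *Amz1* (*r* = 0.947). Those most like *Ms4a6d* were *Rxra* (*r* = 0.947), the retinoid X receptor alpha, *Psmb7* (*r* = 0.924), a proteasome subunit, and *Tbc1d15* (*r* = 0.917). For *Ms4a7* they were *Cnot7* (*r* = 0.927), a subunit of the deadenylase complex, *AA413626* (*r* = 0.923) and *Gm49768* (*r* = 0.902). Both *AA413626* (0 to 0.527 CPM) and *Gm49768* (0.210 to 1.53 CPM) were near the floor. For *Ms4a4a* the genes most alike were *Eif3i* (*r* = 0.953), *Padi4* (*r* = 0.923), at 0.179 to 3.57 CPM, and *Fam111a* (*r* = 0.921). For *Ms4a6c* they were *Vwa8* (*r* = 0.927), *Mocos* (*r* = 0.917) and *Cd93* (*r* = 0.908), and for *Ms4a6b* *Ahsa2* (*r* = 0.898), *Mrpl39* (*r* = 0.877) and *Taf13* (*r* = 0.876). Each is among the highest of 14480 values over 10 libraries, so it is high by selection. At least 2 of a member's 3 genes remained in 27 of 60 cases when one library was left out, and in 0 of 6 with Spearman's rho.

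Outside the members, most other *Ms4a* genes of the cluster had few or no reads. *Ms4a2*, *Ms4a4d*, *Ms4a5*, *Ms4a10*, *Ms4a12*, *Ms4a13*, *Ms4a15* and *Ms4a18* had no read in any library, and of the 6 mast cell markers *Cpa3*, *Tpsb2*, *Cma1* and *Mcpt4* had none, while *Kit* had 0 to 15 reads and *Hdc*, the histamine-forming enzyme, had 0 to 129. *Ms4a1* had 1 to 16 reads per library. *Ms4a8a* had 0 to 12 reads, and *Ms4a3*, a gene of granulocyte and monocyte precursors, had 0 to 8 in PBS and none in GA. *Ms4a14* was the one other *Ms4a* gene that passed the filter. It had 6, 4, 9, 21 and 5 reads in PBS and 20, 16, 22, 26 and 13 in GA. PBS replicate 4 lay among the GA libraries and the other PBS libraries beneath them, with a log2 fold change of 1.01 ± 0.51 (SE; unadjusted *P* = 0.0676, adjusted *P* = 0.875, edgeR; exact permutation *P* = 0.0476, before any correction for the 7 members and the other genes tested this way). *Tmem176a* and *Tmem176b*, relatives outside the cluster, were abundant, at 303 ± 49.1 and 585 ± 72.0 CPM in PBS and 283 ± 18.5 and 562 ± 24.6 CPM in GA (SD, n = 5), with log2 fold changes of -0.10 ± 0.10 and -0.06 ± 0.08 (SE; adjusted *P* = 0.939 and 0.951, edgeR). Next to the cluster, *Ccdc86* had a log2 fold change of -0.04 ± 0.10 (SE; adjusted *P* = 0.975, edgeR), and *Oosp2*, an oocyte gene, had no read.

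The receptors that MS4A proteins have been linked to were examined as a list of 13 genes of the TREM2 and dectin-1 receptors with their adaptors, kinases and sheddases. All 13 could be tested, 6 with positive and 7 with negative log2 fold changes, with a median of -0.0044 against 0.00 over all genes. 0 passed the adjustment and 1 had an unadjusted *P* under 0.05 (edgeR, background 5.75%), *Card9*, the adaptor downstream of dectin-1, with a log2 fold change of 0.43 ± 0.18 (SE; unadjusted *P* = 0.0292, adjusted *P* = 0.854). *Trem2* itself was at 1634, 1759, 1727, 1519 and 1478 CPM in PBS and at 1516, 1500, 1907, 1708 and 1674 CPM in GA, a log2 fold change of 0.03 ± 0.08 (SE; adjusted *P* = 0.974, edgeR). *Clec7a*, which encodes dectin-1, was at 39.4, 44.0, 66.1, 80.8 and 68.3 CPM in PBS and at 49.1, 45.9, 65.0, 73.7 and 52.1 CPM in GA, with a log2 fold change of -0.06 ± 0.19 (SE; adjusted *P* = 0.976, edgeR). For both genes the 2 groups overlapped.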

How the data were processed

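RNA of hippocampal microglia (CD45int CD11b+) from female 3xTg AD mice, 10 libraries, was amplified with the SMARTer v4 kit and prepared with Nextera XT. The submitters' processing notes name bcl2fastq 2.19.0, fastp 0.20.0, STAR 2.7.0f, Subread 1.6.4, featureCounts and the build GRCm38.p6. The annotation release, strand setting and treatment of reads with several matches are not given in the sources used here. The authors deposited raw counts per gene, and 0 columns were left without a sample. Groups came from the treatment label.

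Counts were normalized by TMM, filtered with filterByExpr (minimum count 10) and tested with edgeR 4.0.16 (R 4.3.3) in a quasi-likelihood fit of 14481 genes, with Benjamini-Hochberg adjustment and a threshold of 0.05. limma 3.58.1, DESeq2 1.42.0, other filters and scalings, omission of each library or of a GA title prefix, and a replicate block served as alternatives. The fit was tested on simulated data. Exact permutation tests used log2(CPM + 0.1), and likeness used log2 CPM with a prior count of 2. No pair among the 45 library pairs was identical, and the chi-square per degree of freedom was at least 13.9. Limits at 0 reads cover counting error only, since amplified reads are not independent molecules. Gene models were GENCODE on GRCm38. Sequences were aligned with Biopython 1.88.

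The members and lists were chosen with earlier results of these data known. Named were the members, every other *Ms4a* row with *Tmem176a* and *Tmem176b*, list genes that move with a member, the 3 genes most like each member, and the genes beside the cluster. A few items that fall under this rule are not reported here. *BE692007* was added for its overlap, and *Mrc1*, *Ifit1*, *Card9*, *Trem2*, *Clec7a*, T cell markers, *Kit* and *Hdc* were singled out of their lists after their values were seen.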

Additional observations from a re-analysis of the deposited data

Results flagged for a closer look

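*Ms4a4b* in PBS stood out for one library far from the other 4. PBS replicate 4 was at 0.558 CPM (18 reads), and its gap to the next library was 0.718 of the range of the group, above the critical value of 0.71 for 5 samples. For normally distributed values, chance alone gives such a gap in about 1 in 20 groups, a rate that need not hold for so few reads. In all, 14 groups were examined.

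For *Ms4a4c* and *Ms4a7*, all 3 GA libraries of prefix 400 were above the PBS mean and both GA libraries of prefix 394 were beneath it. The log2 difference between the prefixes was 1.25 for *Ms4a4c* (adjusted *P* = 0.302, edgeR) and 1.11 for *Ms4a7* (adjusted *P* = 0.939, edgeR), and neither passed the adjustment.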

How the results depend on the processing

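No member was called under any of the alternatives run. Over all genes, 0 calls became 2 with DESeq2, 3 with DESeq2 when its independent filtering and Cook cutoff were off, and 1 without GA replicate 1. Leaving out one library gave 0 to 1 calls. Of 120 alternative log2 fold changes of the 6 tested members, 96 kept their direction and 24 did not. With limma-voom, *Ms4a4a* turned to 0.19 and *Ms4a7* to -0.011. With GA prefix 394 alone, *Ms4a4c* turned to -0.47 and *Ms4a7* to -0.74. With GA prefix 400 alone, *Ms4a4a* turned to 0.085, *Ms4a6c* to 0.039 and *Ms4a6d* to 0.0068. Leaving out one library at a time gave -0.27 to 0.22 for *Ms4a4a*, 0.25 to 0.58 for *Ms4a4c*, -0.083 to 0.027 for *Ms4a6b*, -0.17 to 0.0026 for *Ms4a6c*, -0.045 to 0.013 for *Ms4a6d* and -0.19 to 0.27 for *Ms4a7*. For *Ms4a4c* the unadjusted *P* without GA replicate 1 was 0.0343 (edgeR). The cause of these changes was not tested. All 14 alternative permutation tests of the 7 members kept their direction and stayed above 0.05, with a value for *Ms4a4b* of 0.70 (exact permutation *P* = 0.341) that became 0.14 (exact permutation *P* = 0.444) with a pseudocount of 1 CPM, and all 7 ranks per kb stayed as they were. At least 2 of the 3 closest genes of a member remained in 27 of 60 cases without one library and in 0 of 6 with Spearman's rho.

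The title numbers did not pair the libraries: over the 5 same-numbered pairs the deviations correlated at -0.109 to 0.0438, and 1 GA library correlated best with its own number. With the replicate block, no gene was called (0), and the log2 fold change turned to 0.33 for *Ms4a4a*, 0.051 for *Ms4a6c*, 0.066 for *Ms4a6d* and -0.097 for *Ms4a7*.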
